A study of Rattus norvegicus with 30 samples.

Results

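The ADAMTS proteases were followed across all groups of a rat study of plantaris tendon injury. The 10 genes taken are those of a list set by name that are present among the 13124 genes of the count table, and the rule uses no measured value. The list was set with earlier results of these data known, so counts of its genes are a description. They comprise 6 aggrecanases (Adamts1, Adamts4, Adamts5, Adamts8, Adamts9 and Adamts15) and 2 procollagen N-propeptidases (Adamts2 and Adamts14). The other 2 are proteases known to cleave cartilage oligomeric matrix protein, COMP (Adamts7 and Adamts12). These groupings cover only the 10 genes and are not complete classes of ADAMTS genes. In rn6, Adamts1 (ENSRNOG00000001607) and Adamts5 (ENSRNOG00000057794) lie on chromosome 11, Adamts7 (ENSRNOG00000028036), Adamts8 (ENSRNOG00000005574) and Adamts15 (ENSRNOG00000009892) on chromosome 8, and Adamts12 (ENSRNOG00000018865), Adamts9 (ENSRNOG00000023257), Adamts2 (ENSRNOG00000061484), Adamts4 (ENSRNOG00000003538) and Adamts14 (ENSRNOG00000000563) on chromosomes 2, 4, 10, 13 and 20. RNA was sequenced from 30 plantaris tendons of male Sprague Dawley rats aged 3 months. Control tendons (n = 3) came from rats that had no surgery and no test compound. All other tendons were cut through the midsubstance and sutured at once, and the rats then received GSK2894631A, an inhibitor of hematopoietic PGD synthase, by gavage at 0, 2 or 6 mg/kg, 2 times daily, where 0 mg/kg is the vehicle alone. Tendons were taken at 7 days (7D, with 5, 4 and 3 tendons at 0, 2 and 6 mg/kg) or at 21 days (21D, with 5 tendons at each dose). No group had surgery without tenotomy, and none is described with gavage but no surgery. The cut, the suture, the anesthesia, the gavage and the time since surgery are therefore not separated from each other in a comparison with control tendons.

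ADAMTS proteases are secreted zinc metalloproteases that carry thrombospondin repeats and act on the extracellular matrix. The aggrecanases cut aggrecan, versican and related large proteoglycans. The procollagen N-propeptidases remove the amino-terminal propeptide of fibrillar procollagens, a step that lets collagen assemble into fibrils. The proteases are made as inactive precursors from which furin-type convertases remove the propeptide, TIMP3 is the best known tissue inhibitor of the aggrecanases, and the receptor LRP1 takes several of them up from the matrix. In tendon, proteoglycan turnover and collagen processing both take place during repair.

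Promoter sequences from RefSeq (rat assembly GRCr8, while the counts were made on rn6) were matched by symbol for 7 of the 10 genes. Adamts5, Adamts8 and Adamts15 had no entry. Printed here are the 250 bases before the annotated start of the 2 procollagen N-propeptidases, whose levels are later set side by side, and of Adamts1 and Adamts4, the aggrecanases with the largest differences from 0 mg/kg at 7 days. Each runs 5′ to 3′ on the strand of the gene, with capitals at matches on either strand. The motifs searched were the GC box GGGCGG, the CCAAT box, the TATA box spelled TATAAA and the AP-1 motif spelled TGANTCA. Adamts2 is at chr10:35421780-35422029 (plus strand), Adamts14 at chr20:29762683-29762932 (minus strand), Adamts1 at chr11:38427385-38427634 (minus strand) and Adamts4 at chr13:86202761-86203010 (plus strand).
Adamts2: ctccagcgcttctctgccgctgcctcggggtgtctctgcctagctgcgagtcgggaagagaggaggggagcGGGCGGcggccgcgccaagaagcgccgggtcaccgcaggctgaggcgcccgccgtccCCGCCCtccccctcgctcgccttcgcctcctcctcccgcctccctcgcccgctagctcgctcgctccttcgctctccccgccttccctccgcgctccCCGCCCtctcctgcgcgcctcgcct
Adamts14: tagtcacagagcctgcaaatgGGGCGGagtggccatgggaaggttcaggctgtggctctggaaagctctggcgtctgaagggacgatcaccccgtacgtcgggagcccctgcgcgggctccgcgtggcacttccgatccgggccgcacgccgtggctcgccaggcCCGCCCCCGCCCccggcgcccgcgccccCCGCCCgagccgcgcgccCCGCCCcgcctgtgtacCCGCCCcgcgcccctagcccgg
Adamts1: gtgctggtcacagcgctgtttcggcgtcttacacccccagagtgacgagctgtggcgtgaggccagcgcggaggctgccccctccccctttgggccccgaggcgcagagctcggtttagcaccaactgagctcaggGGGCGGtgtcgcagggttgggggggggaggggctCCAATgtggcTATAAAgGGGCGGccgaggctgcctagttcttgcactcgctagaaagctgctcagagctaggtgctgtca
Adamts4: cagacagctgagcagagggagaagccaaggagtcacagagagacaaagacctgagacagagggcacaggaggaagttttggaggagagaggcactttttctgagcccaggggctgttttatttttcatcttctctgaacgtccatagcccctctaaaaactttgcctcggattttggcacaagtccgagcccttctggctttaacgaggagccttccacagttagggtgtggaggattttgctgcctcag

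GGGCGG matched at 3 positions before Adamts2 and at 6 before Adamts14, and 30.5% of all 33469 promoters of the table held it at least once in the same 250 bases. The bases were 75.6% G or C before Adamts2 and 76.0% before Adamts14, against a median of 51.2% over all promoters. The Adamts1 window (65.2% G or C) held GGGCGG at 2 positions and a single match each to CCAAT, in 34.0% of all promoters, and TATAAA, in 12.9%. The Adamts4 window (51.2% G or C) held no match to the 4 motifs. TGANTCA was found in 6.34% of all promoters and in none of the 7 windows of ADAMTS genes. Of the other windows, Adamts9 held 1 GGGCGG and 1 CCAAT, Adamts7 held 2 CCAAT and 1 TATAAA, and Adamts12 held no match.

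Total counts on the listed genes ranged from 12405741 to 49909374 per tendon. Levels are given as CPM, counts scaled to a common library total, after TMM scaling, a per-tendon factor that lines up most genes between samples. All 10 genes passed the filter on low values (a group mean of 3 CPM or more in any group), as did 12558 genes in all. Levels of different genes are not compared here, because the lengths of their transcripts were not at hand. Control tendons stood apart in what else they held. A list of 22 skeletal muscle genes, 18 of them measured, made up 18.8 to 26.7% of each control library, 0.164 to 1.24% of the 7D 0 mg/kg libraries, 0.00862 to 0.0109% at 7D 2 mg/kg, 0.00913 to 0.0112% at 7D 6 mg/kg, and 0.0647 to 9.18% over the 21D libraries. Among 8 tendon markers, Chad, Kera, Mkx, Fmod and Tnmd were lower in 7D 0 mg/kg than in control tendons, while the changes of Scx, Thbs4 and Comp did not pass the test. Of the marker lists for other cells, 7 of 9 macrophage genes, 3 of 4 neutrophil genes, 5 of 5 T cell genes, 4 of 7 endothelial genes, 3 of 7 smooth muscle and pericyte genes and 3 of 5 adipocyte genes were higher at 7D 0 mg/kg. Of 5 cartilage markers 3 were higher and 1 lower, none of 4 Schwann cell markers passed, and no marker was at 0 in every tendon of a group. The macrophage list summed to 457 to 1900 CPM per control tendon, and at 7D 0 mg/kg the sum was 2250 to 5170 CPM. In whole tissue, more cells of a type and more RNA per cell cannot be told apart, and the part of these shifts in the ADAMTS results was not tested beyond the fits named beside them. Control replicate 4 held the most muscle counts (26.7%) and the lowest scaling factor (0.599). Values without it are given for some of the 10 ADAMTS genes, and none were taken for other genes.

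After injury most of the 10 listed ADAMTS genes were higher. Of 8 other ADAMTS genes tested at 7D 0 mg/kg, 4 were higher, 1 was lower (Adamts20, log2 fold change -4.78) and 3 were not called. In 7D 0 mg/kg tendons 9 of the 10 genes were higher than in the controls (edgeR, adjusted p under 0.05), and none was lower, where 35.8% of all genes tested were called higher and 35.6% lower. The median log2 fold change of the 10 genes was 1.59, and that of all genes was 0.05. At 21D 0 mg/kg 9 of 10 were higher and none lower, against 32.2% and 33.7% of all genes, with a median of 2.09 for the 10 genes and 0.03 for all. The gene not called was Adamts8 at 7 days and Adamts1 at 21 days. With 7 of 10 genes higher at 7D 2 mg/kg (35.8% of all genes), 8 at 7D 6 mg/kg (34.1%), 8 at 21D 2 mg/kg (33.8%) and 9 at 21D 6 mg/kg (30.8%), each repaired group had 7 or more of the 10 genes higher. None of the 10 was lower in these groups, where 34.0%, 33.8%, 35.3% and 33.3% of all genes were. All 6 comparisons use the same 3 control tendons, so they are not independent of each other.

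**Figure D1:**
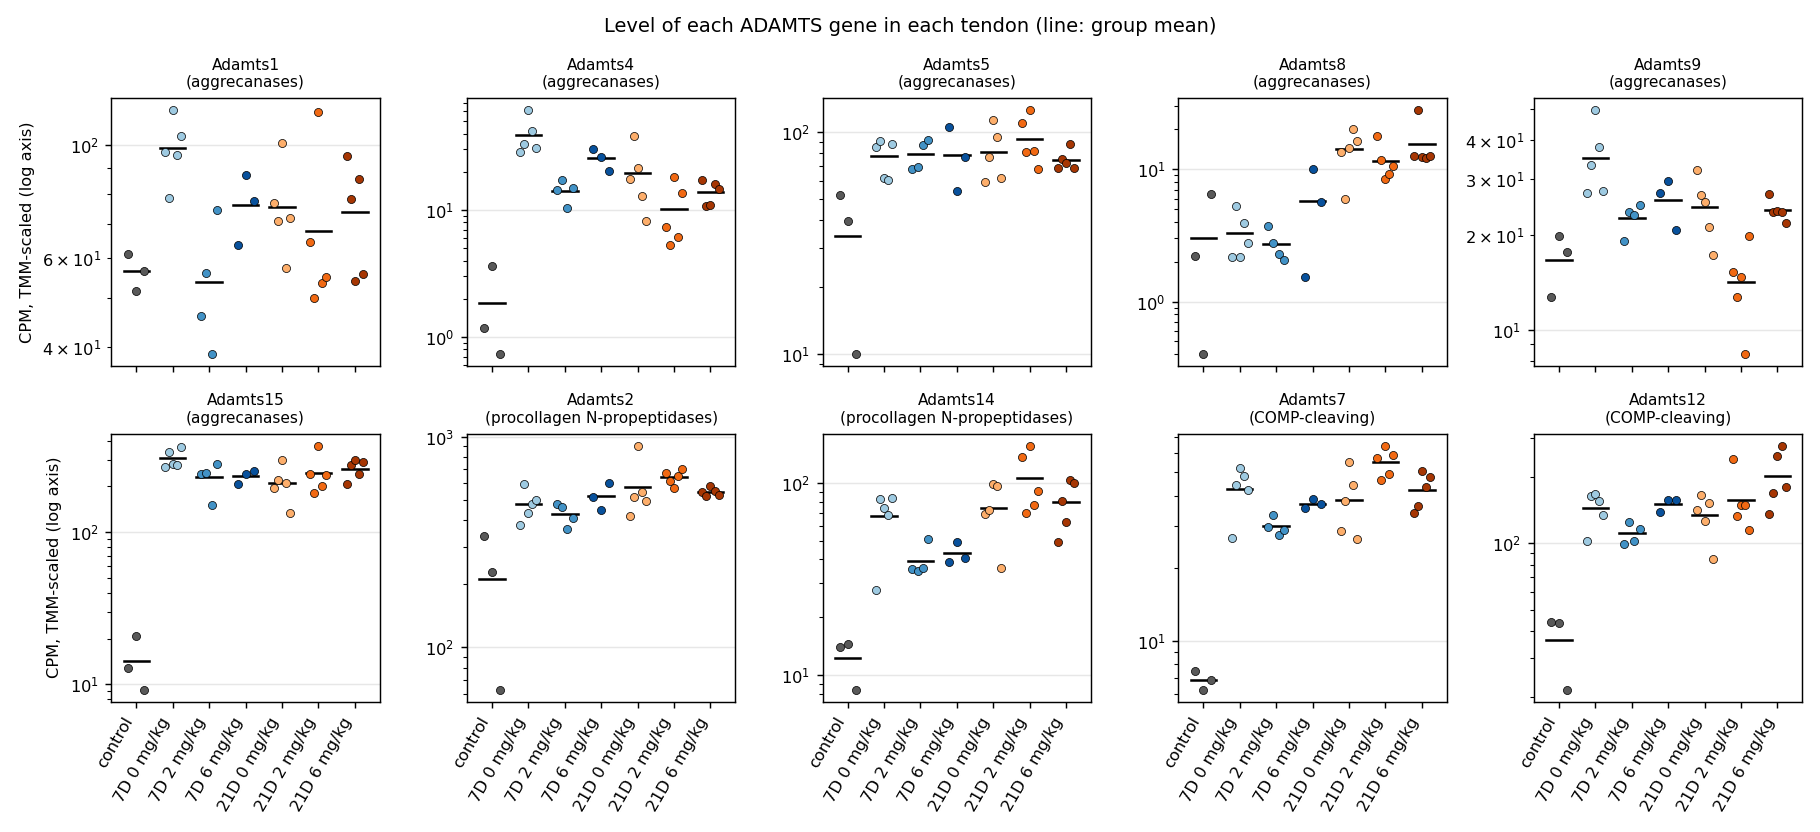
Level of each of the 10 ADAMTS genes in each of the 30 tendons, in TMM-scaled CPM on a log axis that differs between panels, by group along the horizontal axis; points are tendons and lines are group means. Every repaired tendon is above the 3 control tendons for Adamts15 (133 CPM or more against at most 20.8 CPM) and for Adamts4 (5.32 CPM or more against at most 3.65 CPM), while Adamts8 stays between 1.54 and 10.1 CPM at 7 days and is at 6.01 CPM or more at 21 days.

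**Figure D2:**
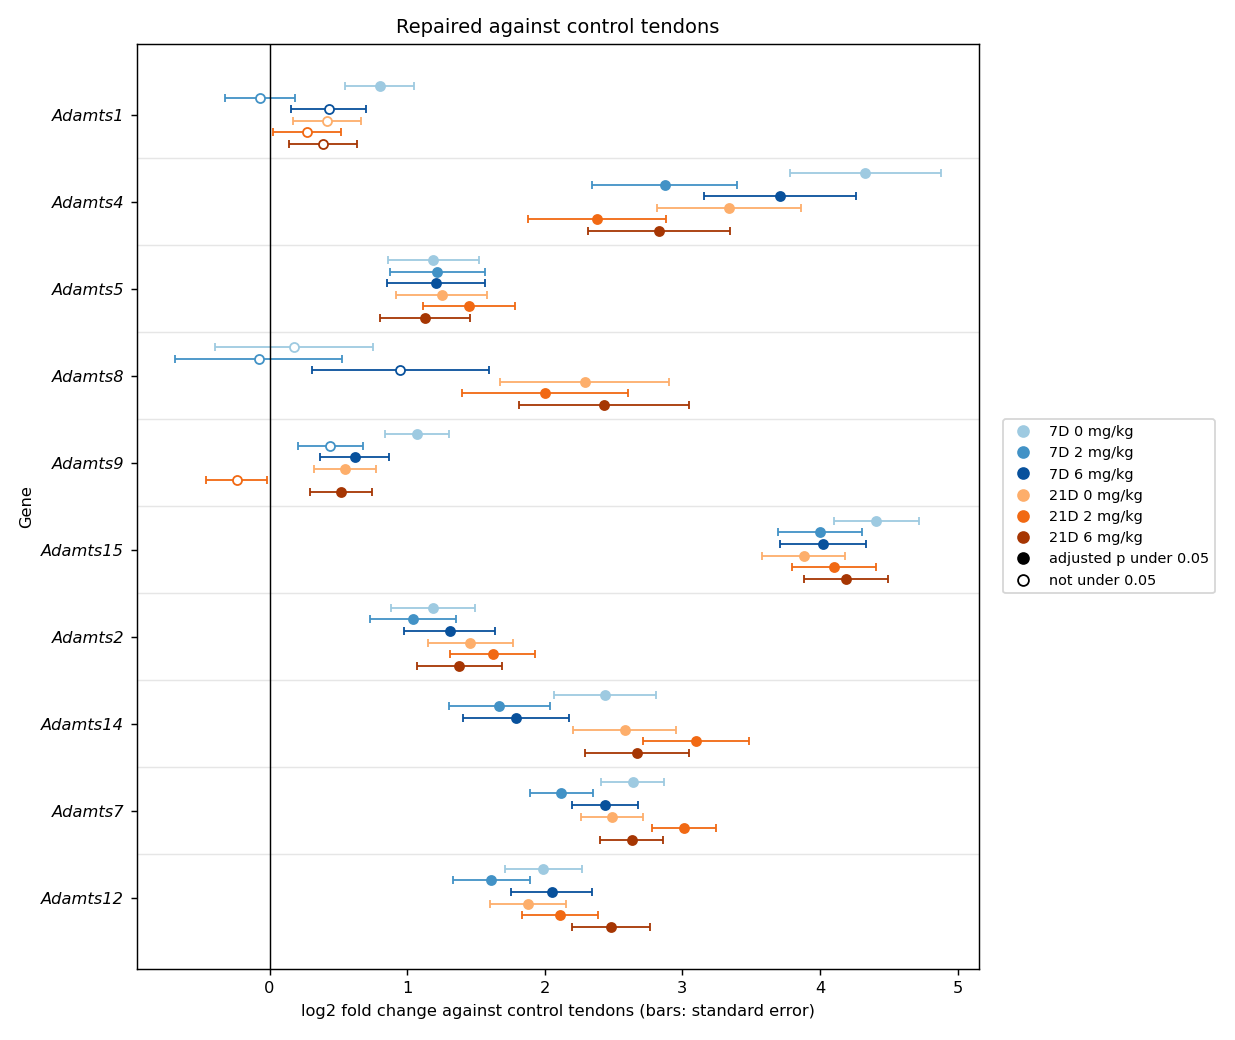
The log2 fold change of each ADAMTS gene against control tendons (horizontal axis) in the 6 repaired groups, with bars of 1 standard error; filled points passed an adjusted p of 0.05 in edgeR. Adamts15 lies between 3.88 and 4.41 in all 6 groups, and Adamts1 is filled only at 7D 0 mg/kg.

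Adamts15, an aggrecanase, had the largest log2 fold change of the 10 genes in 7D 0 mg/kg tendons. It was counted at 12.8, 20.8 and 9.23 CPM in the control tendons, which corresponds to 113 to 520 counts. At 7D 0 mg/kg the 5 tendons held 269, 335, 282, 276 and 365 CPM. The lowest repaired tendon of that group was more than 10 times the highest control tendon, and the groups were far from overlapping. Its mean rose from 14.3 ± 5.95 CPM (SD, n = 3) to 305 ± 42.1 CPM (n = 5), a fitted fold of 21.2 (log2 4.41, standard error 0.309, edgeR adjusted p = 3.12e-11). Across the other repaired groups the mean stayed high, at 230 ± 55.0 CPM (7D 2 mg/kg), 233 ± 24.3 CPM (7D 6 mg/kg), 211 ± 58.8 CPM (21D 0 mg/kg), 246 ± 73.8 CPM (21D 2 mg/kg) and 262 ± 37.6 CPM (21D 6 mg/kg). No tendon of those groups was under 133 CPM. Between 21D and 7D at 0 mg/kg the log2 fold change was -0.53 (edgeR adjusted p = 0.130), which did not pass the test. With any 1 tendon left out the 7D 0 mg/kg change stayed between 4.12 and 4.81.

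Adamts4, one of the main aggrecanases of cartilage, had few counts in control tendons and was clearly higher after injury. The control tendons held 1.18, 3.65 and 0.735 CPM, from 25, 91 and 9 counts. The 7D 0 mg/kg tendons held 28.8, 33.1, 61.1, 41.7 and 30.8 CPM. Every repaired tendon of the study was above every control tendon, the lowest being 5.32 CPM in a 21D 2 mg/kg tendon. The mean rose from 1.85 ± 1.57 to 39.1 ± 13.2 CPM (fitted fold 20.1, log2 4.33, standard error 0.547, edgeR adjusted p = 1.75e-07). Without control replicate 3, the highest control tendon, the log2 fold change was 5.33, and without control replicate 4 it was 3.94. Means were lower in the 21D tendons, at 19.7 ± 11.4, 10.1 ± 5.58 and 13.9 ± 2.91 CPM for 0, 2 and 6 mg/kg, but none of the 3 differences between 21D and 7D passed the test (log2 -0.99, -0.49 and -0.88, with edgeR adjusted p = 0.106, 0.441 and 0.178). Without 21D 0 mg/kg replicate 2, which held 38.0 CPM, the difference at 0 mg/kg became -1.37 and did pass (edgeR adjusted p = 0.0213).

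Adamts5, the other main cartilage aggrecanase, rose less and at one level throughout. It was counted at 52.0, 39.7 and 10 CPM in control tendons and at 60.8 to 91.0 CPM in the 7D 0 mg/kg tendons, where the log2 fold change was 1.19 (standard error 0.331, edgeR adjusted p = 0.00255). All 6 repaired groups had means between 74.7 and 92.9 CPM. The size of the rise leaned on control replicate 4. Without that tendon the log2 fold change at 7D 0 mg/kg was 0.70 (edgeR adjusted p = 0.0243), and without control replicate 2 it was 1.56. At 21D the rise without control replicate 4 was 0.78 at 0 mg/kg (1.25 with all tendons) and 0.66 at 6 mg/kg (1.13 with all tendons).

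Adamts9 and Adamts1 had the smallest changes among the genes called at 7D 0 mg/kg. Adamts9, which cleaves versican and aggrecan, went from 12.7, 19.8 and 17.7 CPM in control tendons to 27.2, 33.2, 49.7, 37.9 and 27.5 CPM (log2 fold change 1.07, standard error 0.231, edgeR adjusted p = 0.000229). Its later calls were weak. At 7D 6 mg/kg, 21D 0 mg/kg and 21D 6 mg/kg it was higher by log2 0.62, 0.55 and 0.52 (edgeR adjusted p = 0.0308, 0.0349 and 0.0484), and these were lost on leaving out 1 tendon in 4 of 6, 4 of 8 and 7 of 8 cases. The call at 21D 6 mg/kg was also lost in 5 of 8 alternative analyses, scaling without muscle genes among them. Adamts1, which also cleaves aggrecan and versican, was at 60.9, 51.7 and 56.6 CPM in control tendons and at 96.9, 78.7, 117, 95.3 and 104 CPM at 7D 0 mg/kg. The groups did not overlap, and the log2 fold change was 0.80 (standard error 0.252, edgeR adjusted p = 0.00628). In the other 5 repaired groups Adamts1 had log2 fold changes of -0.07 to 0.43 and was not called (edgeR adjusted p = 0.137 to 0.824). Scaled by library size alone, where the median log2 fold change of all genes against control was 0.508 to 0.641 in place of 0.01 to 0.05, Adamts1 passed in 4 of those 5 groups, all but 7D 2 mg/kg.

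Adamts8, an aggrecanase, was called higher at 21 days and not at 7 days. Control tendons held 2.22, 0.401 and 6.45 CPM, from 10 to 79 counts. At 7D 0 mg/kg the tendons held 2.19, 5.32, 2.18, 3.94 and 2.75 CPM, within the range of the controls (log2 fold change 0.18, standard error 0.575, edgeR adjusted p = 0.791). At 21D 0 mg/kg they held 13.6, 6.01, 14.6, 20.2 and 16.5 CPM, and 4 of these 5 tendons were above every control tendon and all 5 above every 7D 0 mg/kg tendon. The mean of 14.2 ± 5.21 CPM at 21D 0 mg/kg compared with 3.02 ± 3.11 CPM in control tendons, a fitted fold of 4.89 (log2 2.29, standard error 0.612, edgeR adjusted p = 0.00209). At 21D 2 and 6 mg/kg the means were 11.6 ± 3.82 and 15.6 ± 6.96 CPM, with log2 fold changes of 2.00 and 2.43 (edgeR adjusted p = 0.00516 and 0.00141). In these 2 groups every tendon was above every control tendon. The controls disagreed with each other here more than for any other ADAMTS gene (the SD was 103% of the mean), and without control replicate 4 the log2 fold changes at 21 days were 3.41, 3.10 and 3.55 at 0, 2 and 6 mg/kg, and Adamts8 then also passed at 7D 6 mg/kg (log2 2.08, edgeR adjusted p = 0.0113, against 0.95 and 0.190 with all tendons). At 7D 0 and 2 mg/kg its log2 fold changes without that tendon were 1.29 and 1.04 (edgeR adjusted p = 0.0770 and 0.165), so the level at 7 days relative to control rests on control replicate 4. Adamts15, the gene next to Adamts8 on chromosome 8 with no protein-coding gene between them in RefSeq, was called higher at both times.

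The 2 procollagen N-propeptidases both rose. Adamts2, which processes procollagens of types I, II and III, was at 337, 228 and 63.0 CPM in control tendons and at 381, 595, 433, 479 and 499 CPM at 7D 0 mg/kg. The groups did not overlap, and the log2 fold change was 1.19 (standard error 0.304, edgeR adjusted p = 0.00123). Control replicate 4 was again the low value. Without it the log2 fold change was 0.70 (edgeR adjusted p = 0.00645) at 7D 0 mg/kg and 0.98 at 21D 0 mg/kg, where it was 1.46 with all tendons. Adamts14, a close relative that also acts on procollagen I, was at 14.1, 14.6 and 8.41 CPM in control tendons and at 27.9, 82.6, 74.3, 68.4 and 83.3 CPM at 7D 0 mg/kg (log2 fold change 2.44, standard error 0.371, edgeR adjusted p = 2.76e-06). Its mean at 21D 2 mg/kg, 106 ± 38.2 CPM, was the highest of the 7 groups, with a fitted fold of 8.55 against control. At 7D 0 mg/kg the fitted fold was 5.42 for Adamts14 and 2.28 for Adamts2. That difference between the 2 genes was not tested.

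Both proteases linked to COMP rose in all 6 groups. Adamts7 was among the most even of the 10 genes, at 7.46, 6.25 and 6.86 CPM in control tendons and at 26.6, 44.5, 52.0, 48.1 and 42.2 CPM at 7D 0 mg/kg. The lowest repaired tendon was more than 3 times the highest control tendon. Its log2 fold change was 2.64 (standard error 0.228, edgeR adjusted p = 5.92e-10) at 7D 0 mg/kg and 3.01 at 21D 2 mg/kg, and it stayed between 2.56 and 2.77 at 7D 0 mg/kg whichever tendon was left out. Adamts12 was at 44.0, 43.5 and 21.6 CPM in control tendons and 103 to 168 CPM at 7D 0 mg/kg (log2 fold change 1.99, standard error 0.277, edgeR adjusted p = 7.34e-07). It reached 203 ± 58.9 CPM at 21D 6 mg/kg. Comp itself, the substrate, did not pass the test in any of the 6 groups, with log2 fold changes between -0.77 and 0.45 (edgeR adjusted p = 0.204 to 0.870).

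The skeletal muscle share moved with injury, and it was handled in 2 ways. Leaving the muscle genes out of the scaling kept every call at 7D 0 mg/kg. With the log2 of the muscle share as a covariate, 9 of 10 genes were still called higher at 7D 0 mg/kg and 8 in each of the 21D groups. Only 2 were called at 7D 2 mg/kg and 2 at 7D 6 mg/kg. In these groups muscle counts were nearly absent, and on the log2 scale of the covariate their share was furthest from that of every control tendon. Adamts15 and Adamts7 were the 2 genes called in both. Among the calls lost, Adamts5 kept a log2 fold change of 1.12 at 7D 2 mg/kg (1.22 without the covariate) and 1.11 at 7D 6 mg/kg (1.21), while Adamts4 went to 1.32 at 7D 2 mg/kg (2.87) and 2.19 at 7D 6 mg/kg (3.71). When the fit held only the 2 groups compared, 5 of 10 genes were called at 7D 2 mg/kg and 5 at 7D 6 mg/kg.

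**Figure D3:**
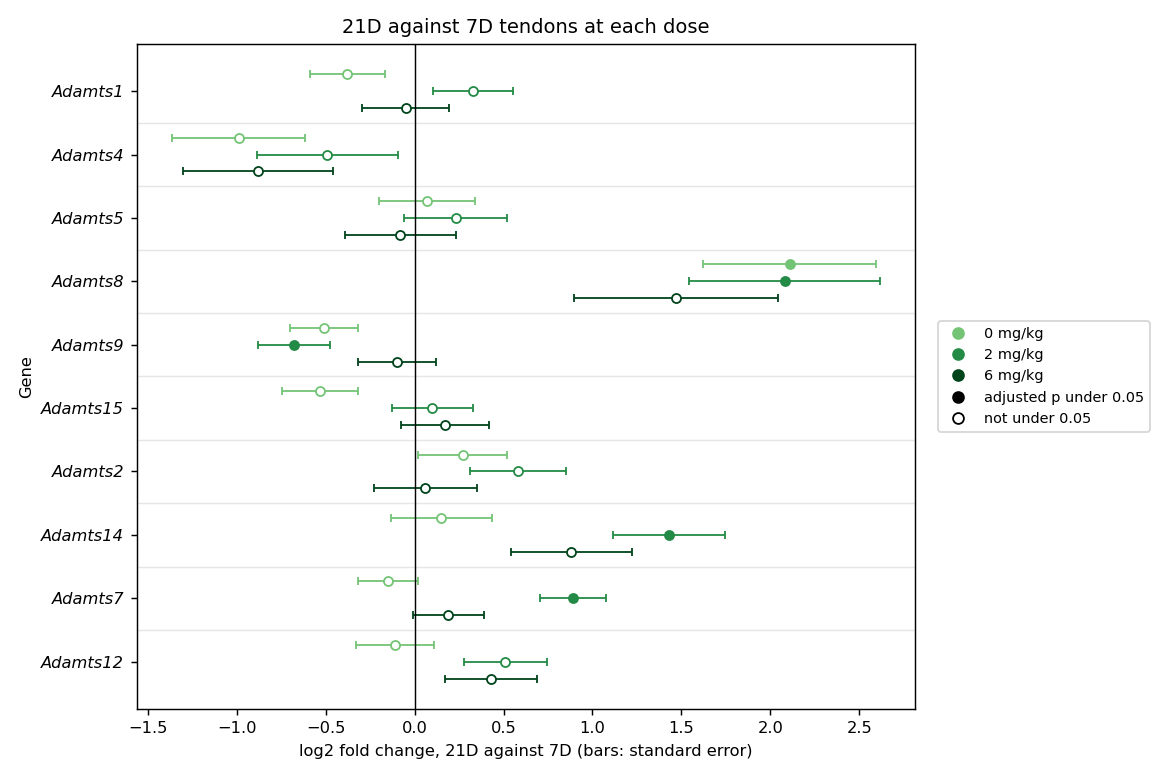
The log2 fold change of each ADAMTS gene in 21D against 7D tendons (horizontal axis) at 0, 2 and 6 mg/kg, with bars of 1 standard error; filled points passed an adjusted p of 0.05 in edgeR. Adamts8 lies to the right at every dose (2.11, 2.08 and 1.47) and is filled at 0 and 2 mg/kg.

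Between 7 and 21 days few ADAMTS genes were called at 0 mg/kg, none at 6 mg/kg and more at 2 mg/kg. At 0 mg/kg 1 gene was higher at 21D (2.88% of all genes were) and none lower (2.47% of all genes). Of the genes not called, 3 were lower at an unadjusted edgeR p under 0.05. The called gene was Adamts8, with a log2 fold change of 2.11 (standard error 0.486, edgeR adjusted p = 0.0144). It passed in all 8 alternative analyses, with the highest adjusted p at 0.0475, and was lost on leaving out 7D 0 mg/kg replicate 3 (edgeR adjusted p = 0.0526). At 2 mg/kg 3 genes were higher (7.09% of all) and 1 lower (5.98% of all). Adamts8 was higher again, by log2 2.08 (standard error 0.535, edgeR adjusted p = 0.0111). With the log2 of the muscle share as a covariate its difference was 0.40 and not called (edgeR adjusted p = 0.765). The muscle share was 0.00862 to 0.0109% in the 7D 2 mg/kg tendons and 1.20 to 3.13% in the 21D 2 mg/kg tendons.

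Adamts14 and Adamts7 also rose between 7 and 21 days at 2 mg/kg. Adamts14 was at 35.7, 34.9, 36.2 and 50.9 CPM at 7D and 137, 69.8, 156, 77.1 and 90.7 CPM at 21D, without overlap (log2 fold change 1.43, standard error 0.314, edgeR adjusted p = 0.00335). Adamts7 was at 29.5, 33.2, 27.5 and 28.8 CPM at 7D and 57.6, 46.4, 64.5, 49.1 and 59.2 CPM at 21D, again without overlap (log2 fold change 0.89, standard error 0.186, edgeR adjusted p = 0.00216). Both calls held on leaving out any 1 tendon and under all 8 alternatives. Adamts9 was the gene that fell, from 22.7 ± 2.47 to 14.2 ± 4.13 CPM (log2 fold change -0.68, edgeR adjusted p = 0.0261), a call lost in 4 of 9 cases with 1 tendon left out. At 6 mg/kg none of the 10 genes passed in either direction, where 8.54% of all genes were higher and 4.55% lower, and 3 had an unadjusted p under 0.05. There Adamts8 had a log2 fold change of 1.47 (edgeR adjusted p = 0.0920) and Adamts14 one of 0.88 (edgeR adjusted p = 0.0876). Whether the change with time differed between doses was tested as an interaction, which called none of the 10 genes (0.390% of all genes were called, and 2 of the 10 had an unadjusted p under 0.05). The smallest edgeR adjusted p was 0.148, for Adamts7. Adamts7 did pass in 3 of 8 alternative analyses (DESeq2, the replicate block and the muscle covariate, with a lowest adjusted p of 0.0183) and without 7D 0 mg/kg replicate 1 (edgeR adjusted p = 0.0374) or 21D 0 mg/kg replicate 3 (0.0425).

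**Figure D4:**
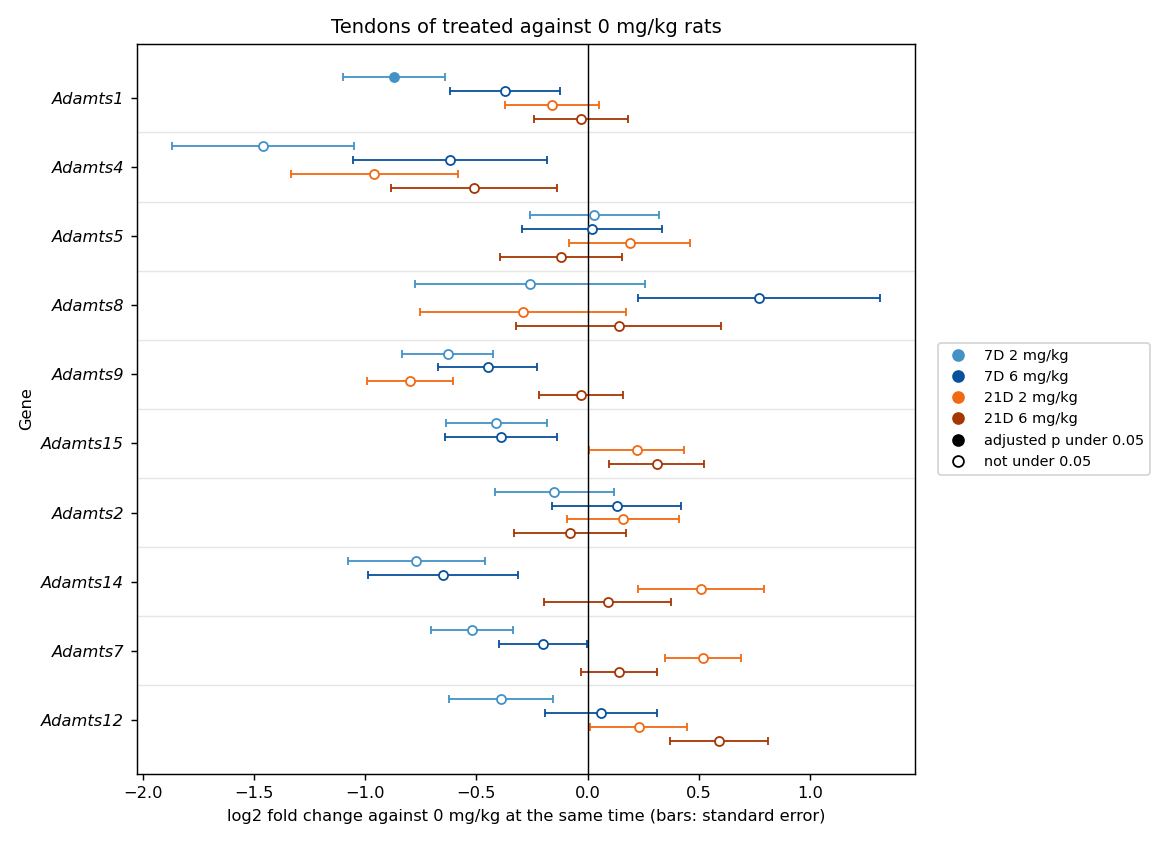
The log2 fold change of each ADAMTS gene in tendons of rats given 2 or 6 mg/kg of GSK2894631A against 0 mg/kg at the same time (horizontal axis), with bars of 1 standard error; filled points passed an adjusted p of 0.05 in edgeR. The only filled point is Adamts1 at 7D 2 mg/kg (-0.87), with Adamts4 further left (-1.46) but open.

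Few differences between doses of GSK2894631A passed the test among these genes. An F-test over the 3 doses called none of the 10 at 7D (2.05% of all genes were called, and 5 of the 10 had an unadjusted p under 0.05) and none at 21D (0% of all genes, and 3 of the 10 at an unadjusted p under 0.05). In single comparisons, 1 of 10 was called at 7D 2 mg/kg against 0 mg/kg (2.36% of all genes, with 5 of the 10 under an unadjusted 0.05), none at 7D 6 mg/kg (0.390% of all genes, none of the 10 unadjusted), none at 21D 2 mg/kg (0% of all genes, 3 of the 10 unadjusted) and none at 21D 6 mg/kg (0% of all genes, 1 of the 10 unadjusted). The called gene was Adamts1. It was at 96.9, 78.7, 117, 95.3 and 104 CPM in the 7D 0 mg/kg tendons and at 46.2, 55.9, 38.8 and 74.5 CPM in the 7D 2 mg/kg tendons. No 2 mg/kg tendon reached the lowest 0 mg/kg tendon, and the log2 fold change was -0.87 (standard error 0.229, edgeR adjusted p = 0.0387). This call was lost in 6 of 9 cases with 1 tendon left out and in 2 of 8 alternative analyses. At 6 mg/kg Adamts1 was at 63.7, 87.4 and 77.5 CPM, overlapping the 0 mg/kg tendons (log2 fold change -0.37, standard error 0.247, edgeR adjusted p = 0.965).

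Adamts4 had a larger difference that stayed just outside the threshold. The 7D 2 mg/kg tendons held 14.5, 17.1, 10.4 and 14.8 CPM against 28.8 to 61.1 CPM at 0 mg/kg, without overlap (log2 fold change -1.46, standard error 0.409, edgeR adjusted p = 0.0553). It passed in 4 of 8 alternative analyses, DESeq2 among them, and without 7D 0 mg/kg replicate 1 (edgeR adjusted p = 0.0420). Leaving out that tendon also brought Adamts7 past the threshold at 7D 2 mg/kg (edgeR adjusted p = 0.0326, from 0.144). The 7D 6 mg/kg tendons held 30.3, 26.0 and 20.2 CPM, all above the 2 mg/kg tendons, with the highest inside the 0 mg/kg range, and the log2 fold change against 0 mg/kg was -0.62 (standard error 0.436, edgeR adjusted p = 0.976). At 21 days Adamts4 differed from 0 mg/kg by -0.96 at 2 mg/kg and -0.51 at 6 mg/kg on the log2 scale (edgeR adjusted p = 0.479 and 0.831). Adamts9 at 21D 2 mg/kg (15.3, 12.7, 14.7, 8.39 and 19.8 CPM against 17.3 to 32.2 CPM at 0 mg/kg) had the smallest unadjusted p of any dose comparison, 0.000344, and an edgeR adjusted p of 0.388 (log2 fold change -0.80). Of the 8 alternative analyses only DESeq2 called it (DESeq2 adjusted p = 0.0477). Other tissue also differed between the 7D 2 and 0 mg/kg tendons. Of the 18 muscle genes 16 were lower at 2 mg/kg, and of 7 smooth muscle and pericyte markers Acta2 and Notch3 were lower and Cspg4 higher. The summed level of that list was 291 to 534 CPM at 2 mg/kg and 419 to 1170 CPM at 0 mg/kg, and their part in the Adamts1 and Adamts4 values was tested only for muscle, where with its share as a covariate Adamts1 was not called and Adamts4 was.

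The partners of the ADAMTS proteases were counted from lists set by name. Their values without control replicate 4 were not taken. Control tendons spread widely for several of them (Vcan 29.3 to 221, Col5a1 108 to 600 and Acan 4.57 to 23.0 CPM). Both measured large proteoglycans were higher at 7D 0 mg/kg. Versican, Vcan, was at 122 ± 96.2 CPM in control and 469 ± 92.4 CPM in 7D 0 mg/kg tendons (log2 fold change 1.94, edgeR adjusted p = 0.000487) and was called higher in all 6 repaired groups. Aggrecan, Acan, was at 12.4 ± 9.52 and 47.9 ± 36.8 CPM (log2 fold change 1.93, edgeR adjusted p = 0.0150), was also called at 21D 0 mg/kg (1.80), and was not called in the 4 groups given 2 or 6 mg/kg. At 7D 2 mg/kg it was at 10.3 ± 2.98 CPM, and the difference from 0 mg/kg was -2.22 on the log2 scale (edgeR adjusted p = 0.0574). Of the procollagens, Col3a1 was higher by log2 2.45, Col5a1 by 2.42 and Col1a1 by 1.14 at 7D 0 mg/kg (edgeR adjusted p = 8.99e-08, 1.38e-05 and 0.00390), and Col2a1, at 7.30 CPM in control tendons, was at -1.95 (edgeR adjusted p = 0.0575). Col3a1 and Col5a1 were higher in all 6 groups, and Col1a1 passed only in the 7D 0 and 6 mg/kg groups. On the carboxy-terminal side of procollagen processing, the C-proteinase Bmp1 was higher in all 6 groups (1.44 at 7D 0 mg/kg, edgeR adjusted p = 3.07e-06), and Tll1 (0.59) passed at 7D 0 mg/kg while the enhancer Pcolce (0.62, edgeR adjusted p = 0.0583) did not. At 7D 2 and 6 mg/kg Pcolce passed (edgeR adjusted p = 0.0366 and 0.0463) and Tll1 did not (0.108 and 0.259).

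Among 9 measured inhibitors, activators and clearance receptors, 5 were higher and 2 lower at 7D 0 mg/kg. Timp1 rose by log2 3.19 and Timp2 by 0.96, Timp4 fell by 1.42, and Timp3 was at -0.52 without passing (edgeR adjusted p = 0.0576). Timp3 was 102 to 158 CPM in control and 77.3 to 119 CPM in 7D 0 mg/kg tendons, and it rose from 7D to 21D at 0 mg/kg (log2 fold change 0.79, edgeR adjusted p = 0.0302). Of the convertases, Furin rose by log2 0.83 and Pcsk5 by 2.62, and Pcsk6 fell by 1.01. Pcsk6 was the gene of these 9 that differed between 7D 2 and 0 mg/kg, at 203 and 64.8 CPM (log2 fold change 1.64, edgeR adjusted p = 0.00450). Lrp1 was higher in all 6 groups (1.46 at 7D 0 mg/kg), and syndecan 4, Sdc4, was at 0.60 (edgeR adjusted p = 0.0849).

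Other genes of the family moved in both directions. Of 8 further ADAMTS genes tested at 7D 0 mg/kg, Adamts10 (log2 fold change 0.74), Adamts16 (2.02), Adamts17 (1.73) and Adamts19 (4.08) were higher, Adamts20 was lower, and Adamts3, Adamts6 and Adamts13 did not pass. Adamts19 went from 0.695 ± 0.585 CPM in control tendons to 12.6 ± 7.70 CPM at 7D 0 mg/kg and 21.7 ± 10.1 CPM at 21D 2 mg/kg. Adamts20 went the other way, from 28.8 to 52.3 CPM in control tendons to 0.615 to 2.93 CPM at 7D 0 mg/kg (log2 fold change -4.78, edgeR adjusted p = 5.50e-05) and 0 to 0.364 CPM at 7D 2 mg/kg, and was 0.157 to 19.3 CPM over the 21D tendons. Its levels moved with the muscle share named above, at the level of groups, and the part of muscle in them was not tested. The ADAMTS-like genes encode relatives without a protease domain. At 7D 0 mg/kg, 3 of 5 tested were lower (Adamtsl2 by log2 -1.44, Adamtsl3 by -0.89 and Adamtsl4 by -0.60), Papln was higher (1.07) and Adamtsl5 was not called (0.29). Adamtsl5 was higher at 21D than at 7D at all 3 doses (0.79, 0.87 and 0.82 on the log2 scale).

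**Figure D5:**
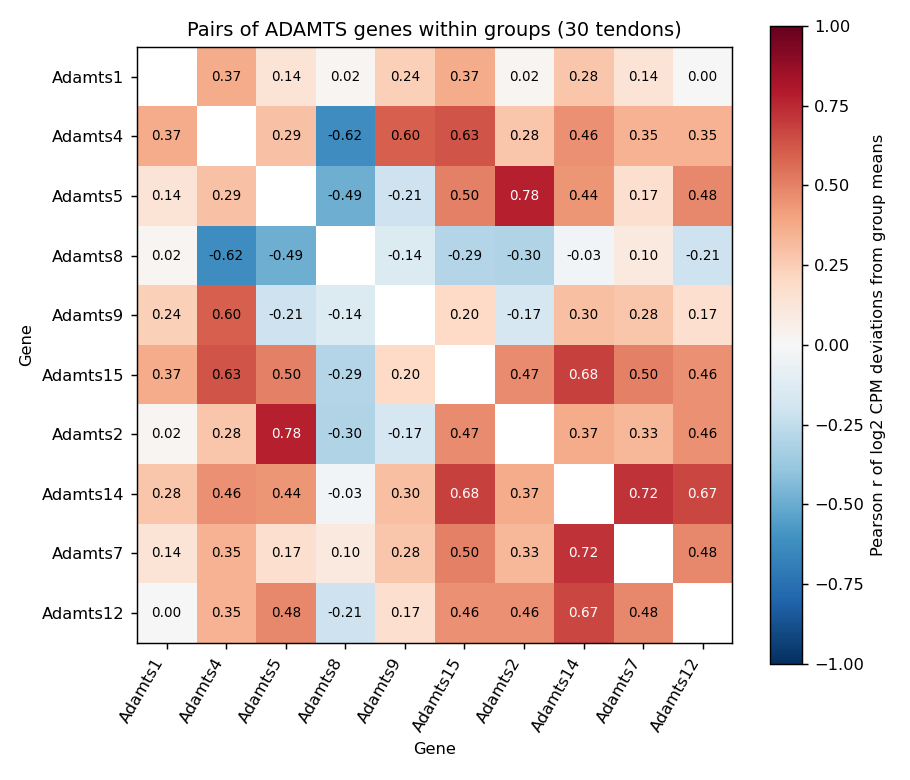
Pearson r of log2 CPM deviations from the group means for each pair of the 10 ADAMTS genes over 30 tendons, with both axes listing the genes and color giving r from -1 to 1. The highest r is between Adamts5 and Adamts2 (0.78) and the lowest between Adamts4 and Adamts8 (-0.62).

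Within groups the ADAMTS genes did not vary as 1 block. These values are Pearson r over 30 tendons after the group means were taken out, given as a description with no test, and the tendons share a library each, so muscle content and other tissue enter every pair. Adamts5 and Adamts2 varied together most (r = 0.78), although 1 is an aggrecanase and the other a procollagen N-propeptidase. Next were Adamts14 with Adamts7 (0.72), Adamts15 with Adamts14 (0.68) and Adamts14 with Adamts12 (0.67). The listed pair of procollagen N-propeptidases, Adamts2 and Adamts14, had r = 0.37. Adamts8 had an r of -0.62 with Adamts4 and -0.49 with Adamts5. For Adamts5 and Adamts2, control replicate 4 (10 and 63.0 CPM) was far below the rest of the controls (39.7 CPM or more and 228 CPM or more). For Adamts4 and Adamts8 the control tendons had few counts and spread widely. No r was computed without the control tendons, so how far these values rest on them was not tested. The neighbors on chromosome 11, Adamts1 and Adamts5, had r = 0.14, and those on chromosome 8, Adamts15 and Adamts8, had r = -0.29.

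For each member, the 3 genes outside the list of 10 with the highest r over all 30 tendons were taken. Adamts14 was most like its relative Adamts19 (r = 0.94 over all tendons, 0.81 within groups), followed by Col5a3 and Nid1. Adamts12 was most like Col5a2 (0.92, and 0.72 within groups), followed by Frk and Ext1. Adamts7 was most like Mmp14, a membrane-bound matrix metalloproteinase (0.96, and 0.68 within groups), followed by Fzd1 and C1qtnf5. Adamts4 was most like Col18a1 (0.94, and 0.71 within groups), with Actn1 and Postn, which encodes the matrix protein periostin, also at 0.94. Adamts2 was most like Antxr1 (0.96, and 0.89 within groups) and had Timp2 among its closest 3. Adamts15 was most like Bub1b, a mitotic checkpoint kinase (0.97, and 0.87 within groups), and Adamts5 most like Cdon, a cell surface receptor (0.95, and 0.94 within groups). Adamts9 was most like Mall (0.86), with the pericyte and endothelial gene Mcam at the same value, and Adamts8 most like the matrix gene Smoc2 (0.87, and 0.55 within groups). Adamts1 had no gene above 0.76, which was Cdh24. The r over all tendons includes the step from control to repaired tendons, which the values within groups leave out. The values within groups still hold the spread among the control tendons, and no r was computed without those tendons.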

How the data were processed

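RNA-seq gene counts covered 30 plantaris tendons, each from a separate rat. The authors trimmed reads with fastp, mapped them to rn6 with STAR, assigned them to Ensembl genes by exon overlap, and deposited raw counts with no normalization. A table of the authors' own edgeR comparisons was also deposited and holds fold changes and p-values, which were not used. From it came gene names, chromosomes and, as other values, gene spans. The strand setting of the counting was not given in the sources used here. Groups follow the labels, by which 7D 6 mg/kg has 3 tendons.

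Counts were analysed with edgeR 4.0.16 in R 4.3.3. A gene was kept if its group mean reached 3 CPM in any of the 7 groups (12558 kept, 566 removed), libraries were scaled by TMM, and 1 quasi-likelihood model with a mean per group was fitted to all tendons. Genes were called at an adjusted p under 0.05 (Benjamini-Hochberg over all genes kept). The standard error is the size of the log2 fold change divided by the square root of F. A prior count of 2 was added for log2 CPM. All 10 genes are named. Related genes and markers come from lists set by name, and likeness is the highest Pearson r of log2 CPM over all tendons. The members and lists were chosen with earlier results of these data known.

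On simulated counts of 12191 genes for 7D 0 mg/kg against control, with 200 changed, the test made 166 calls, 7.23% of them false, and found 63% of 2-fold and 91% of 4-fold changes. DESeq2 made 183 calls, 12% of them false. Genes not changed had the same mean in every group, with no muscle shift. In the measured counts 35.8% of genes were called higher and 35.6% lower, so these rates need not hold there. No 2 tendons of a group agreed within sampling noise (chi-square per gene of at least 29.9). Each library's total limits its precision, and counting error alone is small beside the spread between rats. The alternatives tried were RLE scaling, library size only, scaling without muscle genes, no filter and a fit limited to the compared groups. Others were the log2 of the muscle share as a covariate, a replicate block, DESeq2 1.42.0 and leaving out each tendon. Promoters were searched in Python 3.11.15 and plots drawn with matplotlib 3.10.9.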

Additional observations from a re-analysis of the deposited data

Results flagged for a closer look

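Of 50 groups of 4 or 5 tendons tested over the 10 genes, 6 held a tendon set apart from the others by a gap test (Dixon's test), where chance alone would flag about 1 in 20. Adamts8 in 21D 6 mg/kg replicate 2 was at 28.0 CPM, with the other tendons at 12.1 to 12.7 CPM. Adamts14 in 7D 2 mg/kg replicate 5 was at 50.9 CPM, against 34.9 to 36.2 CPM. Adamts14 in 7D 0 mg/kg replicate 1 was at 27.9 CPM, against 68.4 to 83.3 CPM. That tendon was also the lowest of its group for Adamts2, Adamts4, Adamts7, Adamts9, Adamts12 and Adamts15. Adamts1 in 21D 2 mg/kg replicate 3 was at 116 CPM, against 50.1 to 64.3 CPM. Adamts2 in 21D 0 mg/kg replicate 3 was at 905 CPM, against 419 to 545 CPM. Adamts12 in 21D 2 mg/kg replicate 1 was at 243 CPM, against 115 to 149 CPM. The tendons flagged are 6 different ones.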

How the results depend on the processing

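No result changed direction past the threshold under any alternative. Against control tendons, the number of genes called higher at 7D 6 mg/kg was 5 in a fit of only the groups compared, and it was 2 at 7D 2 mg/kg and 2 at 7D 6 mg/kg with the muscle share as a covariate. For 21D against 7D, DESeq2 called 2 genes higher at 6 mg/kg, and a fit of only the groups compared called 0 lower at 2 mg/kg and 1 lower at 6 mg/kg, with 0 lower at 2 mg/kg under the muscle covariate as well. For 7D 2 against 0 mg/kg the calls were 3 with DESeq2, 2 with only the groups compared and 2 with the muscle covariate, and across doses at 7D they were 2, 1 and 1. DESeq2 called 1 gene for 21D 2 against 0 mg/kg and 1 across doses at 21D, Adamts9 in both (DESeq2 adjusted p = 0.0477 and 0.0172). In the interaction DESeq2 called 1 gene, and the muscle covariate also called 1 (Adamts7 in both). With a replicate block the interaction called 1 gene (Adamts7), and the calls of Adamts9 at 21D 6 mg/kg (lost in 5 of 8 alternatives in all) and Adamts1 at 7D 2 mg/kg were lost while Adamts4 at 7D 2 mg/kg was gained. Same-numbered tendons of different groups correlated at a mean r of 0.007, with 29 of 76 pairs over 0.1. For different-numbered tendons of different groups the mean was -0.001, with 89 of 307 pairs over 0.1. On average the replicate numbers paired the tendons little, and a pairing limited to some tendons was not tested. Leaving out 1 tendon gave 0 to 3 calls for 7D 2 against 0 mg/kg, 0 to 1 in the interaction, 0 to 1 higher and 0 to 1 lower for 21D against 7D at 0 mg/kg, and 0 to 1 lower at 2 mg/kg. With 1 tendon left out of a control group of 3 the fit still borrows the spread of the other groups. The causes of these changes were not tested. Adamts8 could not be tested for 7D 2 mg/kg against control in a fit of only those groups, because it fell under the filter. The 3 control tendons limit every comparison with injury, and single genes with few counts, such as Adamts4 and Adamts8 in control tendons, have wide errors.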

Other observations

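Adamts13, the protease that cleaves von Willebrand factor, was measured very unevenly, and no group comparison passed. Its level ran from 0 to 21.2 CPM among the 21D 2 mg/kg tendons and from 0.193 to 19.5 CPM among the 7D 2 mg/kg tendons, with a mean of 8.57 ± 8.02 CPM in the latter, and its log2 fold change at 7D 0 mg/kg was 2.34 (edgeR adjusted p = 0.278).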
